A study of Homo sapiens with 34 samples.

Results

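Expression of 6 genes of neural signalling, GRIK1, OPRK1, ADRA2A, DDC, BCHE and CAMK2N1, was followed over 17 groups of prostate cell cultures. They are 6 of the 26336 gene rows in the count table and were picked by symbol, as receptor and enzyme genes taken to be repressed by androgen, with results of these data already known: the choice used the higher GRIK1 of LNCaP in stripped serum and the lower ADRA2A on calcium phosphate. Differences within LNCaP, and the VCaP comparisons that use its stripped-serum libraries on calcium phosphate, are therefore given as descriptions without p-values. All 6 rows were found, and each had reads in LNCaP libraries. The name given to the set drew on these LNCaP and VCaP libraries, so their calls describe the set and do not test its name. GRIK1, OPRK1, CAMK2N1, BCHE and DDC were lower past the threshold with androgen in LNCaP, where 7.73% of all genes were called. In VCaP OPRK1, CAMK2N1 and DDC were lower, where 17.5% were called. The CAMK2N1 call in LNCaP and the DDC call in VCaP did not hold in some fits with 1 library left out. ADRA2A was higher past the threshold with androgen in VCaP, a call lost without 3 of the 4 libraries and in a fit of all lines, and its log2 value of 0.85 ± 0.48 (SE) in LNCaP did not pass. In MDAPCa2a no gene of the set that could be tested passed the threshold with androgen, as was true of every gene in the table (0% called). CAMK2N1 and DDC fell in the libraries labelled stripped, where 1.58% of all genes were called and 0.697% called lower. Neither of these falls stayed past the threshold when any 1 of the 4 libraries was left out.

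Poly(A)-selected RNA was sequenced from 4 human prostate lines: RWPE, a non-tumorigenic epithelial line, LNCaP, from a lymph node metastasis, and VCaP and MDAPCa2a, both from bone metastases. Each line was grown on tissue culture plastic in its own control medium (2 libraries per line), and LNCaP (2 libraries), VCaP (1 library) and MDAPCa2a (2 libraries) were also grown on plastic with charcoal-dextran-stripped serum, from which steroids are removed. Surfaces coated with amorphous calcium phosphate (ACP), used as a mineral model of bone, carried RWPE, LNCaP and VCaP in control medium, LNCaP, VCaP and MDAPCa2a in stripped serum, and all 4 lines with stripped serum plus androgen. ACP groups had 2 libraries each, except RWPE with androgen, which had 3. The androgen is labelled as 100 mM and is called DHT in some labels and testosterone in others. Control medium was serum-free keratinocyte medium with EGF and pituitary extract for RWPE, supplemented RPMI with serum for LNCaP, DMEM and F12 with serum for VCaP, and BRFF-HPC1 with serum for MDAPCa2a, and every medium held penicillin and streptomycin. RWPE had no stripped group, so its androgen comparison is with control medium and changes the medium as well. Plastic control cultures are labelled as continuous culture, whereas all others are labelled as harvested on day 4, and the treatment protocol gives 4 days for both. Plastic under MDAPCa2a was coated with FNC, a protein mix that was not used on ACP, so the surface and its coating change together in that line. The labels do not say that replicates were separate cultures, so p-values measure the spread between these libraries, which may be technical.

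The 6 genes encode receptors, enzymes and a kinase inhibitor with parts in nerve cell signalling. GRIK1 encodes a subunit of kainate-type glutamate receptors, which are ion channels. OPRK1 encodes the kappa opioid receptor, which binds dynorphins, and ADRA2A encodes an adrenergic receptor for noradrenaline and adrenaline; both receptors couple to inhibitory G proteins. DDC encodes aromatic L-amino acid decarboxylase, which makes dopamine and serotonin. BCHE encodes butyrylcholinesterase, a secreted enzyme, made largely by liver, that splits choline esters, and CAMK2N1 encodes an inhibitor of calcium/calmodulin-dependent kinase II. Androgens act in prostate epithelium through a steroid receptor that raises some genes, such as KLK3, which encodes prostate-specific antigen, and lowers others. Stripped serum and added androgen therefore stand at opposite ends of hormone supply.

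Libraries held between 15.4 and 44.8 M reads assigned to genes. Of 8 genes taken as a check on androgen supply, 6 were lower and 1 higher in LNCaP in stripped serum on plastic, and 6 were higher with androgen in LNCaP on ACP. In VCaP 5 of the 8 were higher and 1 lower with androgen, while in stripped serum 1 was lower on plastic and 0 passed on ACP. In RWPE 0 of the 8 passed with androgen. In MDAPCa2a this check did not follow the label: none of the 8 was lower past the threshold in the libraries labelled stripped. FKBP5 rose from 177 and 217 to 796 and 852 CPM (reads per 1e6 reads of the library). It was the only 1 of the 8 called, where 1.58% of all genes were. As for the family genes below, this call was lost in some fits with 1 library left out. With androgen none of the 8 passed, where no gene in the table did (0%). Directions for that line are therefore those of libraries labelled stripped. Summed levels of 19 neuron and neuroendocrine marker genes were 325 to 1244 CPM in VCaP and 48.3 to 146 CPM in the other lines. Of the 19 genes, 16 to 19 had a read in each group. Glia markers, summed over 6 genes, were at 253 to 344 CPM in MDAPCa2a and 18.7 to 109 CPM in the other lines. Liver transcripts, summed over 12 genes, were at 23.8 to 177 CPM in the 8 plastic control libraries and 1.57 to 385 CPM in the other 26. Of the 12 genes, 11 or 12 had a read in each plastic control group and 4 to 10 in each of the other groups, and the part of these transcripts in the results was not tested. In these bulk samples fewer cells of a type and less RNA per cell cannot be told apart.

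RefSeq promoter windows of 250 bases before to 50 after a start site were matched for 3 of the 6 genes. The windows of DDC, which has 2 listed starts, and ADRA2A are shown because the androgen values of these genes had opposite signs in LNCaP and VCaP. They are given 5′ to 3′ on the gene's strand in build GRCh38.p14, at chr7:50565356-50565655 (minus strand) for DDC start 1, chr7:50561022-50561321 (minus strand) for DDC start 2 and chr10:111076779-111077078 (plus strand) for ADRA2A. Capitals mark TATAAA, the TATA box letters.
DDC start 1: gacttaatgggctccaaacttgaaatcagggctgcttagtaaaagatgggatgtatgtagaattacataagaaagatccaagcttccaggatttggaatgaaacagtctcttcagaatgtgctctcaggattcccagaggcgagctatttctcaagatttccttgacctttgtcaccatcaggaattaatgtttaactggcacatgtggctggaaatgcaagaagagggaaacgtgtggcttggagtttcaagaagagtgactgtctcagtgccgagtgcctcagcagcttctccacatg
DDC start 2: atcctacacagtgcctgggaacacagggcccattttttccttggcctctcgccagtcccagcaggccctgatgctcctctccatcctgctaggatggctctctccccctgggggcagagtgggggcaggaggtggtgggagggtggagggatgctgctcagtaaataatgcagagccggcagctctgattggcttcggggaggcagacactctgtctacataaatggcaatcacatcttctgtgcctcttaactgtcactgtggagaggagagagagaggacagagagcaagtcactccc
ADRA2A: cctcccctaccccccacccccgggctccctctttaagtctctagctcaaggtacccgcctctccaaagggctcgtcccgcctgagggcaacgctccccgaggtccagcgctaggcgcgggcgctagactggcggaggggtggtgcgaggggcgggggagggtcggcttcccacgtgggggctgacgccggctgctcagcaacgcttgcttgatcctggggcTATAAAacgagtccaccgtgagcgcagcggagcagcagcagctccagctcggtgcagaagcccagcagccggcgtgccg
The GC content of these windows was 44.3%, 57.3% and 69.3%, against a median of 58.7% over 35116 promoters of the same length. The ADRA2A window held TATAAA from position -29, letters (or their reverse complement TTTATA) found in 11.5% of all promoters. BCHE, matched as well, held TTTATA from position -101. None of the windows of DDC, ADRA2A and BCHE held the androgen half-site AGAACA or its reverse complement TGTTCT (14.8% of all promoters), the palindrome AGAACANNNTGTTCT (0.00285%), or the forkhead motif TGTTTAC or its reverse complement GTAAACA (3.42%). All motifs were searched on both strands, and the palindrome contains the half-site. A match describes letters in this window and no more.

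Levels are given below in CPM, scaled to effective library size over all lines. Per kilobase of exon, CAMK2N1 had the highest level of the set on plastic in control medium in all 4 lines, from 17.2 ± 0.56 (SD, n = 2) CPM per kb in RWPE to 99.1 ± 18.4 (SD, n = 2) in VCaP. GRIK1 was the lowest per kilobase in LNCaP, VCaP and MDAPCa2a on plastic in control medium, at most 0.015 CPM per kb. In LNCaP in stripped serum on plastic, DDC at 50.8 ± 0.95 (SD, n = 2) and OPRK1 at 27.5 ± 6.12 (SD, n = 2) CPM per kb stood on either side of BCHE at 29.9 ± 4.06 (SD, n = 2), and ADRA2A was at 8.25 ± 1.42 (SD, n = 2) and GRIK1 at 1.32 ± 0.16 (SD, n = 2).

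**Figure D1:**
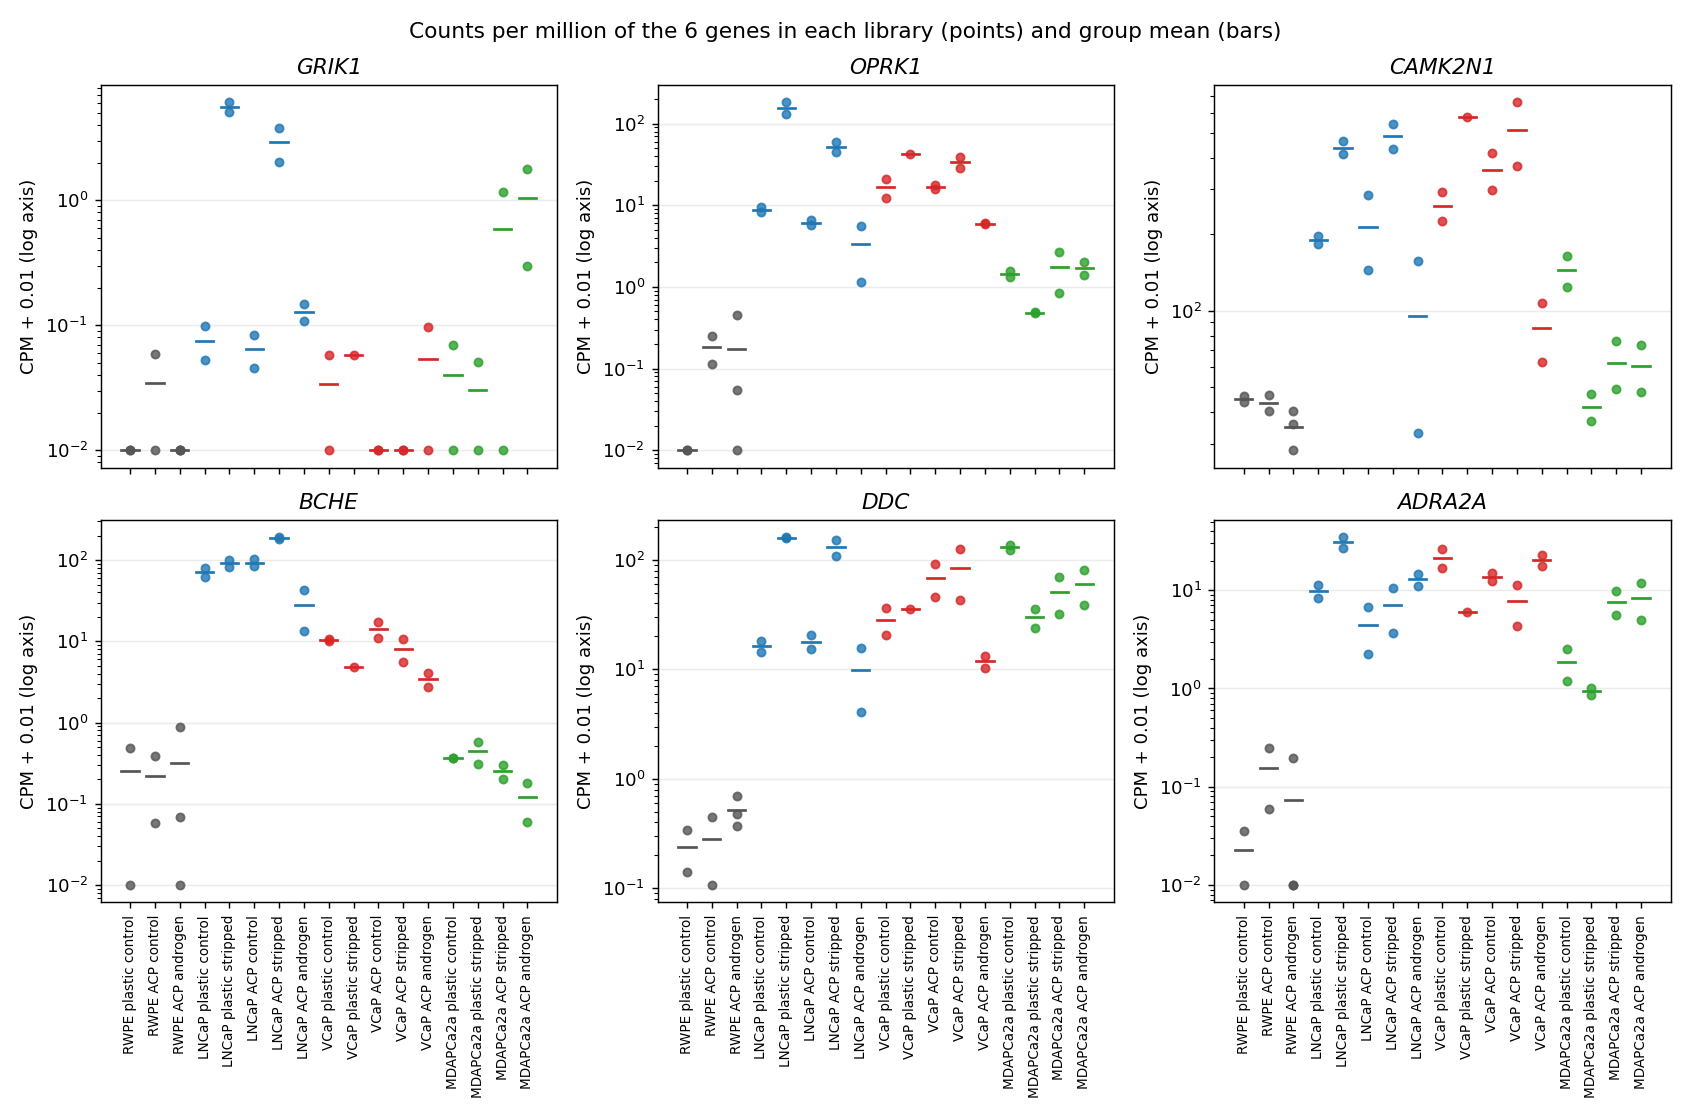
Level of each gene in every library, in CPM plus 0.01 on a log axis, by line, surface and medium. Points are libraries and bars are group means. GRIK1 stands above 2 CPM only in LNCaP in stripped serum, BCHE is above 10 CPM only in LNCaP and VCaP libraries, and the DDC group means above 100 CPM are those of LNCaP in stripped serum and of MDAPCa2a on plastic in control medium.

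Among the receptors, GRIK1 had its reads in very few groups. LNCaP on plastic gave 0.042 and 0.088 CPM in control medium and 6.08 and 5.10 CPM in stripped serum. These levels are 2 and 4 reads against 237 and 100, a ratio of 88.8 between the group levels (95% counting interval 40.4 to 243.7). On ACP LNCaP had 0.036 and 0.073 CPM in control medium, 2.01 and 3.82 CPM in stripped serum, and 0.138 and 0.098 CPM with androgen. Both stripped groups stood above every other LNCaP library, and the androgen libraries lay just above the control ones. The ratio of stripped to androgen reads on ACP, 171 against 7, was 24.5 (counting interval 11.6 to 61.8). Counting intervals cover counting error only. In VCaP GRIK1 had at most 0.087 CPM in any library, and it did not pass the count filter there; 0 reads in its 2 ACP stripped libraries allow a level of up to 0.067 CPM. RWPE had 0 reads in 6 of 7 libraries and 0.049 CPM in the other.

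MDAPCa2a held GRIK1 reads mainly on ACP, and mainly in replicate 2. On plastic the line had 0.06 and 0 CPM in control medium and 0 and 0.04 CPM in the libraries labelled stripped. On ACP the values were 0 and 1.16 CPM labelled stripped, and 0.287 and 1.77 CPM with androgen. The 20 reads of the ACP stripped group against 1 on plastic gave a ratio of 33.3 (counting interval 5.33 to 1381), all of it from replicate 2, and the test of that difference did not pass (log2 change 4.74 ± 1.94 (SE), edgeR adjusted p = 0.313); without that library the value was -2.23. In the order of the 17 group means, LNCaP plastic stripped and LNCaP ACP stripped came first without overlap, then the 2 MDAPCa2a ACP groups, whose values overlapped each other, and from LNCaP plastic control downward neighbours overlapped. GRIK1 lies over BACH1, a gene on the opposite strand with up to 2813 reads in a library. As the strand setting of the counting is not given in the sources used here, reads from the 2 strands cannot be told apart in the shared stretch.

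OPRK1 spanned the widest range of the receptors and was high in both LNCaP and VCaP when serum was stripped. LNCaP on plastic had 8.18 and 9.56 CPM in control medium and 183 and 133 CPM in stripped serum. On ACP it had 6.58 and 5.66 CPM in control medium, 44.5 and 60.1 CPM in stripped serum, and 1.14 and 5.58 CPM with androgen. The stripped groups stood clear of the others on both surfaces, and the androgen libraries were below every control library. In VCaP the control libraries on plastic had 21.1 and 12.2 CPM and the stripped library 42.2 CPM. VCaP on ACP had 16 and 17.8 CPM in control medium, 28.2 and 39.5 CPM in stripped serum, and 5.89 and 6.04 CPM with androgen. The order was therefore stripped above control above androgen in both lines, with no overlap of the groups on a surface. MDAPCa2a did not share it: OPRK1 was at 1.58 and 1.30 CPM on plastic in control medium, 0.465 and 0.484 CPM in the libraries labelled stripped, 0.827 and 2.67 CPM on ACP labelled stripped, and 1.38 and 2.02 CPM with androgen. RWPE had at most 0.438 CPM in any library.

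ADRA2A followed another pattern, high on plastic in stripped serum in LNCaP and low there in VCaP. LNCaP on plastic had 11.3 and 8.30 CPM in control medium and 34.6 and 27.1 CPM in stripped serum, the highest group mean of all 17. On ACP LNCaP had 2.25 and 6.68 CPM in control medium, 3.65 and 10.4 CPM in stripped serum, and 11.1 and 14.6 CPM with androgen. Control and stripped values overlapped on ACP, and the androgen libraries stood above both groups. VCaP had 26.0 and 16.9 CPM on plastic in control medium and 6.05 CPM in its stripped library. On ACP VCaP had 12.5 and 14.9 CPM in control medium, 11.2 and 4.30 CPM in stripped serum, and 17.5 and 22.9 CPM with androgen. Stripped VCaP libraries were thus the lowest on both surfaces, the reverse of LNCaP on plastic. MDAPCa2a was separated by surface: 1.19 and 2.54 CPM in control medium and 0.996 and 0.848 CPM in the libraries labelled stripped on plastic, against 5.53 and 9.76 CPM labelled stripped and 4.93 and 11.8 CPM with androgen on ACP. RWPE had at most 0.238 CPM.

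Of the enzymes, DDC was high in LNCaP in stripped serum and in MDAPCa2a in control medium. LNCaP on plastic had 14.5 and 18.0 CPM in control medium and 157 and 161 CPM in stripped serum. On ACP LNCaP had 15.2 and 20.4 CPM in control medium, 109 and 153 CPM in stripped serum, and 4.08 and 15.7 CPM with androgen. The stripped libraries of both surfaces stood apart from all other LNCaP libraries, while control and androgen values overlapped. In VCaP DDC had 20.4 and 36.4 CPM on plastic in control medium, 35.8 CPM in the stripped library, 90.8 and 45.5 CPM on ACP in control medium, 43.3 and 126 CPM on ACP in stripped serum, and 13.4 and 10.3 CPM with androgen. Here only the androgen group stood apart. VCaP ACP stripped replicate 2, the library with 126 CPM of DDC, also had 697 CPM of the neuroendocrine gene CHGA against 125 CPM in replicate 1. MDAPCa2a had 137 and 124 CPM in control medium and 24.0 and 35.9 CPM in the libraries labelled stripped on plastic, then 32.0 and 70.1 CPM labelled stripped and 38.6 and 80.8 CPM with androgen on ACP. RWPE had at most 0.689 CPM. The annotated DDC gene overlaps FIGNL1, a gene on the same strand with up to 2521 reads in a library, so reads in shared sequence are uncertain.

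BCHE was mainly an LNCaP transcript. LNCaP had 61.4 and 80.1 CPM on plastic in control medium and 83.2 and 101 CPM in stripped serum. On ACP it had 84.7 and 102 CPM in control medium, 182 and 192 CPM in stripped serum, and 13.5 and 42.7 CPM with androgen. The ACP stripped group was the highest and the androgen group the lowest in LNCaP, each without overlap. In VCaP the values were 10.0 and 10.7 CPM on plastic in control medium, 4.80 CPM in the stripped library, 17.1 and 11.1 CPM on ACP in control medium, 5.51 and 10.7 CPM on ACP in stripped serum, and 2.77 and 4.12 CPM with androgen. In VCaP, unlike LNCaP, stripped values were therefore below control values on both surfaces. MDAPCa2a had 0.051 to 0.565 CPM and RWPE 0 to 0.876 CPM over all their libraries.

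CAMK2N1, the kinase inhibitor, was the only gene of the set with more than 1 CPM in RWPE, where its 7 libraries ranged from 28.4 to 46.7 CPM. LNCaP on plastic had 183 and 197 CPM in control medium and 412 and 463 CPM in stripped serum. On ACP LNCaP had 144 and 284 CPM in control medium, 431 and 543 CPM in stripped serum, and 33.1 and 158 CPM with androgen. Stripped libraries lay above all others of the line, and control and androgen values overlapped. VCaP had 225 and 293 CPM on plastic in control medium, 577 CPM in the stripped library, 418 and 298 CPM on ACP in control medium, 659 and 371 CPM in stripped serum, and 63.2 and 108 CPM with androgen. MDAPCa2a had 164 and 125 CPM in control medium and 36.8 and 47.0 CPM in the libraries labelled stripped on plastic, 49.1 and 75.8 CPM labelled stripped on ACP, and 48.2 and 73.1 CPM with androgen. The plastic control group was the highest of that line, without overlap.

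In stripped serum GRIK1, OPRK1 and DDC were higher in LNCaP on both surfaces, a description, as the choice of genes used the GRIK1 rise. No gene of the set passed the threshold in VCaP, and CAMK2N1 and DDC fell in MDAPCa2a. The ACP stripped libraries enter both the stripped and the androgen comparisons of a line, so these comparisons share samples. On plastic LNCaP had no overlap between stripped and control libraries for any of the 6. The share of all genes without overlap was not counted, so nothing is read from this. GRIK1, OPRK1, DDC and ADRA2A passed the threshold (edgeR, adjusted p below 0.05), where 9.45% of 14656 genes tested were called and 4.61% called higher. The log2 changes were 4.20 ± 0.46 (SE) for OPRK1, 3.34 ± 0.45 for DDC, 1.70 ± 0.47 for ADRA2A, 1.26 ± 0.52 for CAMK2N1 and 0.43 ± 0.37 for BCHE. On ACP GRIK1 (5.64 ± 0.59), OPRK1 (3.08 ± 0.45) and DDC (2.86 ± 0.44) passed, with 5.37% of genes called and 3.28% called higher, while CAMK2N1 was at 1.18 ± 0.52, BCHE at 0.98 ± 0.37 and ADRA2A at 0.65 ± 0.50. The median over the 14656 genes was -0.01 on either surface. As the rule used this line, nothing is read from these counts. The ADRA2A call on plastic did not pass without any 1 of the 4 libraries, by DESeq2 or in the fit of all lines. ADRA2A on ACP turned sign when a library was left out, over a range of -0.32 to 1.60.

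In VCaP none of the 5 genes tested passed for stripped serum on plastic, where 0.89% of 15614 genes were called and the stripped arm is 1 library. OPRK1 was at 1.38 ± 0.35 on the log2 scale (edgeR adjusted p = 0.0767), CAMK2N1 at 1.2 ± 0.40 (adjusted p = 0.136), DDC at 0.38 ± 0.59 (adjusted p = 0.762), BCHE at -1.07 ± 0.50 (adjusted p = 0.268) and ADRA2A at -1.78 ± 0.55 (adjusted p = 0.115). At an unadjusted p below 0.05 edgeR gave 3 of the 5, and DESeq2 called 3. On ACP the VCaP values were 1.02 ± 0.30 for OPRK1, 0.54 ± 0.34 for CAMK2N1, 0.33 ± 0.48 for DDC, -0.78 ± 0.38 for BCHE and -0.80 ± 0.42 for ADRA2A. None of these 5 passed in edgeR (0.82% of genes called), with 1 of the 5 below 0.05 before adjustment and 1 called by DESeq2.

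In MDAPCa2a CAMK2N1 fell from 144 ± 27.8 to 41.9 ± 7.2 CPM (SD, n = 2 each) between control medium and the libraries labelled stripped on plastic, a log2 change of -1.75 ± 0.27 (edgeR adjusted p = 0.0247). DDC fell from 130.4 ± 9.24 to 29.9 ± 8.46 CPM (SD, n = 2 each), a log2 change of -2.09 ± 0.41 (edgeR adjusted p = 0.0458). These were 2 of the 5 genes tested, against 1.58% of all genes called and 0.697% called lower. OPRK1 at -1.56 ± 0.53 (adjusted p = 0.193), ADRA2A at -0.98 ± 0.53 (adjusted p = 0.411) and GRIK1 at -0.50 ± 2.89 (adjusted p = 0.959) did not pass, and BCHE was below the count filter. Neither call held when any 1 of the 4 libraries was left out, which gave adjusted p from 0.0988 to 0.227 for CAMK2N1 and from 0.182 to 0.312 for DDC, with log2 changes of -1.96 to -1.55 and -2.43 to -1.81. In comparisons of stripped with control medium on plastic, the harvest label changes with the medium and they cannot be told apart; the same holds for the surface in comparisons of ACP with plastic in control medium.

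The stripped effects on plastic of MDAPCa2a and VCaP were compared directly in a fit of all lines, a test added after the values were seen. The VCaP stripped arm is 1 library, which is assumed to vary like the other groups, so its SE comes from them. For CAMK2N1 the MDAPCa2a effect was lower by a log2 difference of -2.94 ± 0.68 (SE, edgeR adjusted p = 0.016), 1 of the 6 genes called, where 3.12% of 17323 genes were. OPRK1 differed by -2.93 ± 0.84 (adjusted p = 0.0562), DDC by -2.46 ± 0.78 (adjusted p = 0.0805), ADRA2A by 0.81 ± 0.94 (adjusted p = 0.726), BCHE by 1.35 ± 1.18 (adjusted p = 0.612) and GRIK1 by -1.32 ± 3.42 (adjusted p = 0.924), none of which passed. OPRK1 passed without the count filter (adjusted p = 0.00466), by DESeq2 (adjusted p = 0.0102) and without VCaP plastic control replicate 1 (adjusted p = 0.0425), and DDC passed without the filter (adjusted p = 0.00734), so that 3 genes were called without the filter and 2 by DESeq2. The CAMK2N1 call did not pass without VCaP plastic control replicate 1 (-2.76, adjusted p = 0.0548) or MDAPCa2a plastic control replicate 1 (-2.73, adjusted p = 0.0774).

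**Figure D2:**
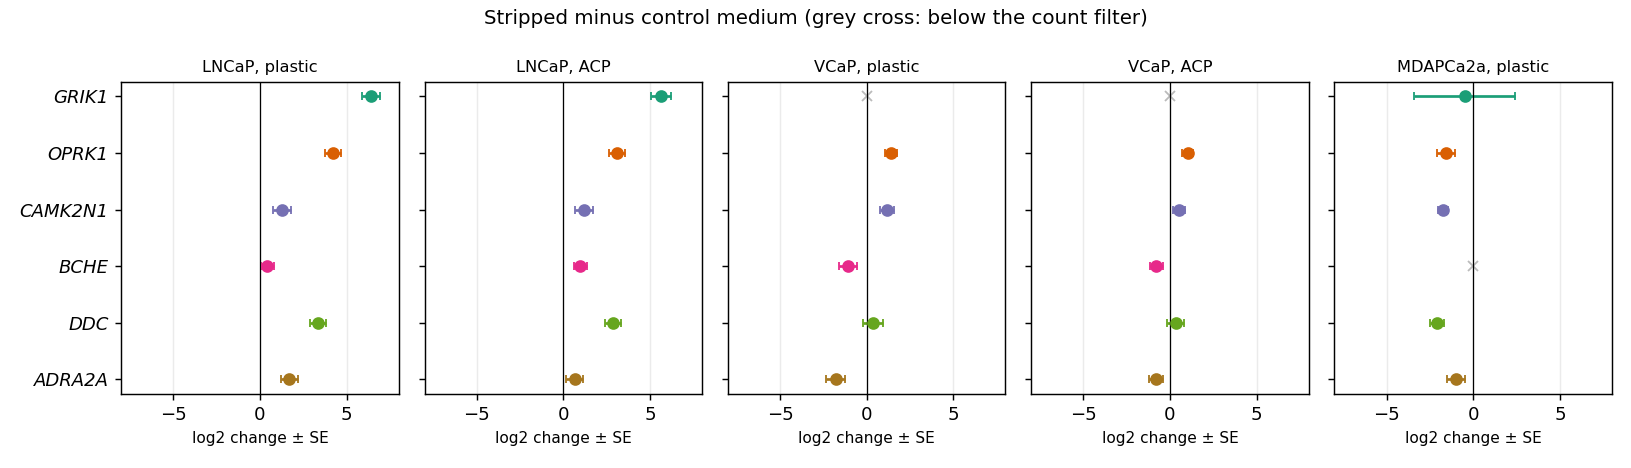
Change with stripped serum for each gene, as log2 of stripped over control ± SE, in LNCaP, VCaP and MDAPCa2a on plastic and in LNCaP and VCaP on ACP. Grey crosses mark genes below the count filter. All 6 values lie above 0 in LNCaP on both surfaces, BCHE and ADRA2A lie below 0 in VCaP, and all 5 values of MDAPCa2a lie below 0, of which only CAMK2N1 and DDC passed the threshold.

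Androgen was added on ACP only. In LNCaP GRIK1 (-4.60 ± 0.52), OPRK1 (-3.97 ± 0.48), DDC (-3.75 ± 0.46), BCHE (-2.76 ± 0.40) and CAMK2N1 (-2.38 ± 0.54, all log2 ± SE against stripped serum) passed the threshold, where 7.73% of all genes did and 3.96% were lower, and ADRA2A was at 0.85 ± 0.48. No gene's androgen libraries overlapped its stripped ones, but the share of all genes without overlap was not counted. LNCaP androgen replicate 1 was below replicate 2 for OPRK1, CAMK2N1, BCHE and DDC: without replicate 1 their log2 changes were -3.26, -1.66, -2.16 and -3.10, and without replicate 2 they were -5.51, -3.88, -3.79 and -5.01. CAMK2N1 did not pass without either ACP stripped replicate. In VCaP DDC (-2.84 ± 0.52), CAMK2N1 (-2.59 ± 0.36) and OPRK1 (-2.50 ± 0.32) were lower past the threshold and ADRA2A (1.39 ± 0.42) was higher, with 17.5% of all genes called, 8.8% lower and 8.67% higher, and BCHE was at -1.24 ± 0.40. The 5 genes tested in VCaP did not overlap between the groups, again without a share over all genes to set beside this. DDC was lost without ACP androgen replicate 2 and had a log2 change of -1.87 without ACP stripped replicate 2, the library with high CHGA. ADRA2A was lost without ACP stripped replicate 2, without either androgen replicate and in the fit of all lines, over a leave-out range of 0.85 to 2.28. The LNCaP and VCaP comparisons were chosen with these results known, so the counts are a description.

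In MDAPCa2a on ACP androgen gave log2 changes of 0.78 ± 1.14 for GRIK1, 0.19 ± 0.40 for DDC, 0.10 ± 0.46 for ADRA2A, -0.08 ± 0.50 for OPRK1 and -0.08 ± 0.26 for CAMK2N1 (SE, edgeR adjusted p from 0.968 to 0.986). No gene of the 5 was called, as was no gene in the table (0%). None was called at an unadjusted p below 0.05 or by DESeq2. In RWPE 2 genes passed the count filter. CAMK2N1 was at 43.5 ± 4.54 CPM (SD, n = 2) on ACP in control medium and 34.9 ± 6.09 CPM (SD, n = 3) with androgen, a log2 change of -0.30 ± 0.18 (edgeR adjusted p = 0.257), and BCHE was at 0.35 ± 1.5 (adjusted p = 0.893). Neither passed, where 19.1% of genes did, and neither had an unadjusted p below 0.05 or a DESeq2 call.

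**Figure D3:**
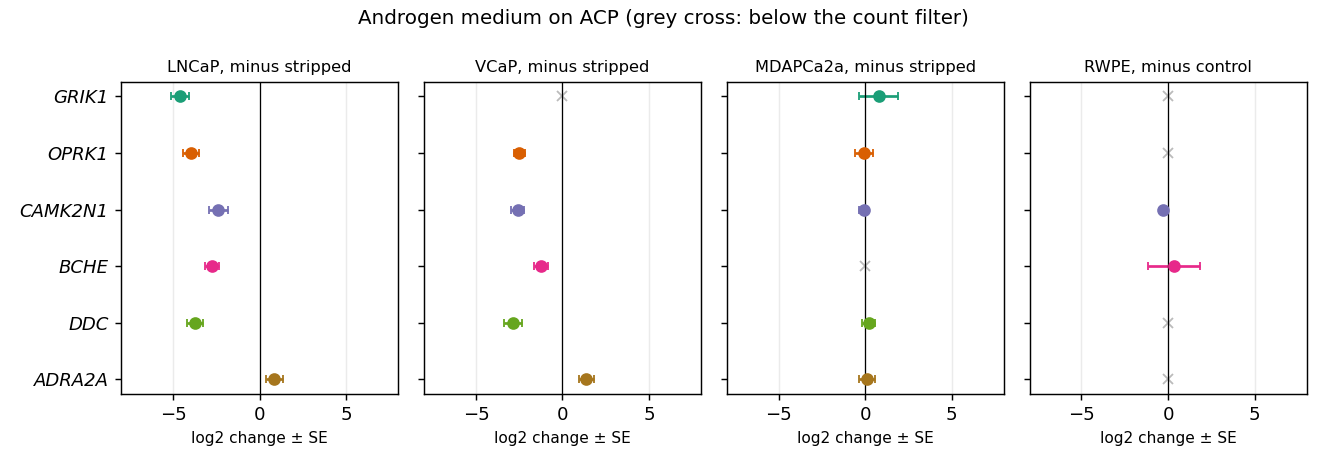
Change with androgen on ACP for each gene, as log2 of androgen over stripped serum ± SE in LNCaP, VCaP and MDAPCa2a and of androgen over control medium ± SE in RWPE. Grey crosses mark genes below the count filter. ADRA2A is above 0 and the other genes tested are below 0 in LNCaP and VCaP, while the values of MDAPCa2a lie within 0.78 of 0.

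Between ACP and plastic, OPRK1 and ADRA2A in LNCaP in stripped serum were the calls made. They are a description, as the choice of genes used the lower ADRA2A on ACP. In LNCaP none of the 6 passed between ACP and plastic in control medium, where 12.6% of genes did (also 0 at an unadjusted p below 0.05 and 0 by DESeq2), and the log2 changes ran from -1.04 ± 0.49 for ADRA2A to 0.50 ± 0.37 for BCHE. In stripped serum OPRK1 (-1.55 ± 0.41) and ADRA2A were lower on ACP past the threshold, with 6.12% of genes called and 1.8% called lower, GRIK1 was at -0.90 ± 0.37, DDC at -0.25 ± 0.40, CAMK2N1 at 0.19 ± 0.51 and BCHE at 1.05 ± 0.38. The OPRK1 call did not pass without any 1 of the 4 libraries, by DESeq2 or in the fit of all lines, and the ADRA2A call did not pass without either plastic replicate or without ACP replicate 1; neither passed in a fit without plastic control libraries. In VCaP in control medium the log2 changes were 1.32 ± 0.49 for DDC, 0.52 ± 0.34 for CAMK2N1, 0.49 ± 0.38 for BCHE, 0.07 ± 0.30 for OPRK1 and -0.60 ± 0.41 for ADRA2A (SE, edgeR adjusted p from 0.651 to 0.958). None of the 5 passed, where 0.0448% of genes did; before adjustment 1 was below 0.05, and DESeq2 called 0. In VCaP in stripped serum ADRA2A was at 0.38 ± 0.53, DDC at 1.27 ± 0.63, BCHE at 0.78 ± 0.49, CAMK2N1 at -0.14 ± 0.41 and OPRK1 at -0.29 ± 0.36. No gene in the table passed there (0%), and of the 5 genes 0 were below 0.05 before adjustment and 0 were DESeq2 calls.

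In MDAPCa2a ADRA2A had higher values on ACP, where the coating differs as well. Labelled stripped it was at 0.92 ± 0.10 CPM on plastic and 7.64 ± 2.99 CPM on ACP (SD, n = 2 each), a log2 change of 3.12 ± 0.53 that did not pass (edgeR adjusted p = 0.131). It passed without the count filter (adjusted p = 5e-06), by DESeq2 (adjusted p = 3.8e-06), in the fit of all lines (adjusted p = 0.0447), and without ACP stripped replicate 1 or 2. The other MDAPCa2a changes on ACP were 1.96 ± 0.54 for OPRK1 (adjusted p = 0.23), 0.84 ± 0.40 for DDC (adjusted p = 0.356) and 0.65 ± 0.27 for CAMK2N1 (adjusted p = 0.312). None of the 5 genes passed in edgeR, where 0.00734% of genes did, although 4 were below 0.05 before adjustment and DESeq2 called 1. The difference between the lines was not tested. In RWPE CAMK2N1 was at 45 ± 1.48 CPM on plastic and 43.5 ± 4.54 CPM on ACP (SD, n = 2 each), a log2 change of -0.02 ± 0.20 (edgeR adjusted p = 0.96), and BCHE was at -0.07 ± 1.52 (adjusted p = 0.986). Neither of the 2 was called, against 4.16% of genes, and neither was below 0.05 before adjustment or a DESeq2 call.

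**Figure D4:**
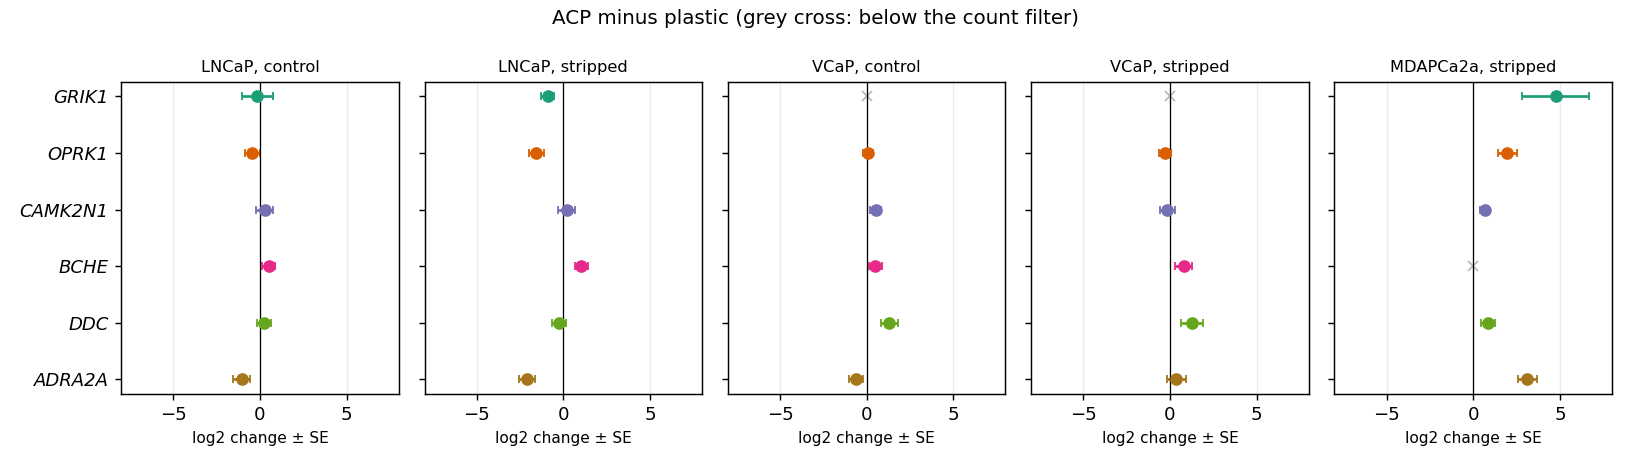
Change with surface for each gene, as log2 of ACP over plastic ± SE, in LNCaP and VCaP in control medium and in LNCaP, VCaP and MDAPCa2a in stripped serum. Grey crosses mark genes below the count filter. ADRA2A is the lowest value in both LNCaP panels (-1.04 and -2.09) and is at 3.12 in MDAPCa2a.

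Between lines, on plastic in control medium, RWPE was below VCaP and MDAPCa2a for OPRK1, CAMK2N1, DDC and ADRA2A past the threshold. Each line had its own control medium and MDAPCa2a plastic was coated, so line, medium and coating cannot be told apart in these comparisons. VCaP was above RWPE for 5 of the 6 genes, where 62.4% of 17323 genes were called and 32.1% called higher: CAMK2N1 by 2.52 ± 0.46 on the log2 scale (edgeR adjusted p = 4.14e-05), BCHE by 5.38 ± 0.74 (adjusted p = 7.62e-07), DDC by 6.91 ± 0.75 (adjusted p = 1.89e-08), and OPRK1 (adjusted p = 1.61e-09) and ADRA2A (adjusted p = 4.4e-09). OPRK1 had 0 reads in RWPE on plastic and was at least 417.4-fold higher in VCaP, against a floor of 3 reads over the group. ADRA2A had 1 read in that RWPE group and a ratio of 1623 (counting interval 290.9 to 64150). The BCHE value depends on RWPE replicate 2, which held all BCHE reads of its group: it was 4.38 without replicate 1 and 11.14 without replicate 2. Without RWPE replicate 2 the log2 differences were 7.69 for DDC and 12.18 for ADRA2A.

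MDAPCa2a was above RWPE for 4 of the 6, where 56.7% of genes were called and 28.3% called higher: DDC by 9.10 ± 0.78 (edgeR adjusted p = 3.92e-10), CAMK2N1 by 1.68 ± 0.45 (adjusted p = 0.00252), OPRK1 at least 36.9-fold (adjusted p = 1.65e-05) and ADRA2A with a read ratio of 145.9 (counting interval 25.7 to 5806, adjusted p = 1.69e-05). BCHE at 0.54 ± 0.98 did not pass (adjusted p = 0.662), with 0 and 0.481 CPM in RWPE against 0.357 and 0.359 CPM in MDAPCa2a. It was at -0.45 without RWPE replicate 1 and passed without RWPE replicate 2 (adjusted p = 0.0444). Between the bone metastatic lines DDC was higher in MDAPCa2a by 2.20 ± 0.52 (adjusted p = 0.000993), and OPRK1 (-3.53 ± 0.53, adjusted p = 5.26e-06), BCHE (-4.84 ± 0.71, adjusted p = 3.36e-06) and ADRA2A (-3.52 ± 0.60, adjusted p = 2.46e-05) were lower. CAMK2N1 at -0.85 ± 0.44 did not pass (adjusted p = 0.108), and 52.4% of all genes did, 25.1% higher and 27.3% lower. GRIK1 was called in none of the 3 line comparisons by edgeR, at an unadjusted p below 0.05 or by DESeq2.

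The 6 genes were set beside 85 other genes of the same 6 families: ionotropic glutamate receptors, opioid receptors and peptides, calmodulin kinases, acetylcholine genes, monoamine genes and adrenergic receptors. With androgen in LNCaP 48 of the 85 could be tested, 5 were higher and 3 lower past the threshold (16.7%, against 7.73% of all genes), and their median log2 change was -0.07 against -0.01 over all genes. GRIN3A, an NMDA receptor subunit, went from 3.30 and 5.50 to 21.9 and 29.9 CPM (2.54 ± 0.26), and CHRNA2, a nicotinic acetylcholine receptor subunit, from 1.10 and 0.666 to 50.2 and 37.6 CPM (5.61 ± 0.31). CAMK2D (1.25 ± 0.28) and the monoamine oxidases MAOA (0.76 ± 0.15) and MAOB (3.42 ± 0.81) were the other higher genes. GRIK2, another kainate receptor subunit, was lower by -1.78 ± 0.40, COLQ, the collagen tail that anchors acetylcholinesterase, by -1.87 ± 0.40, and ADRA2C by -1.84 ± 0.44.

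Stripped serum on plastic in LNCaP left 14.6% of the 48 genes past the threshold, against 9.45% of all genes. GRIK2 (1.63 ± 0.38), COLQ (2.04 ± 0.36) and SPR, an enzyme of tetrahydrobiopterin synthesis, were higher. CHRNA2 went from 27.5 and 21.8 to 0.616 and 0.510 CPM (-5.37 ± 0.32), GRIN3A from 21.4 and 19.9 to 2.03 and 1.63 CPM (-3.44 ± 0.28), and CHRNB2 was lower as well. On ACP SLC5A7, the choline transporter, was higher (6.13 ± 0.85), and GRIN3A and CHRNA2 were again lower, with 8.33% of the 48 genes called against 5.37% of all genes.

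In VCaP with androgen 53 of the 85 were tested, 6 were higher and 5 lower (20.8%, against 17.5% of all genes), with a median of -0.26 against -0.03 over all genes. The genes GRIA2, an AMPA receptor subunit (-3.06 ± 0.59), NETO1, an auxiliary protein of kainate and NMDA receptors (-1.85 ± 0.22), CAMK2B (-1.87 ± 0.37), CAMK2G (-1.43 ± 0.25) and SLC6A4, the serotonin transporter (-3.81 ± 0.76), were lower. CHRNA2 (0.99 ± 0.27), CHRNA5 (1.45 ± 0.36), GCH1 (1.67 ± 0.37), PTS (1.18 ± 0.26), NETO2 and CALM2 were higher; GCH1 and PTS make tetrahydrobiopterin, a cofactor of the hydroxylases upstream of DDC. GRIA2 was at 11.5 and 54.3 CPM in the VCaP ACP stripped libraries, replicate 2 being the library with high CHGA, and at 4.37 and 3.50 CPM with androgen. Of 17 neuron and neuroendocrine markers tested in this comparison, CHGA, CHGB, ENO2 and NCAM1 were lower and none was higher; the liver genes summed to 324.4 to 385 CPM in stripped serum and 50.7 to 114 CPM with androgen. The part of either list in the results for the 6 genes was not tested. CHRNA2 was past the threshold and higher with androgen in both LNCaP and VCaP, 1 of the 8 family genes called in LNCaP and 1 of the 11 called in VCaP.

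**Figure D5:**
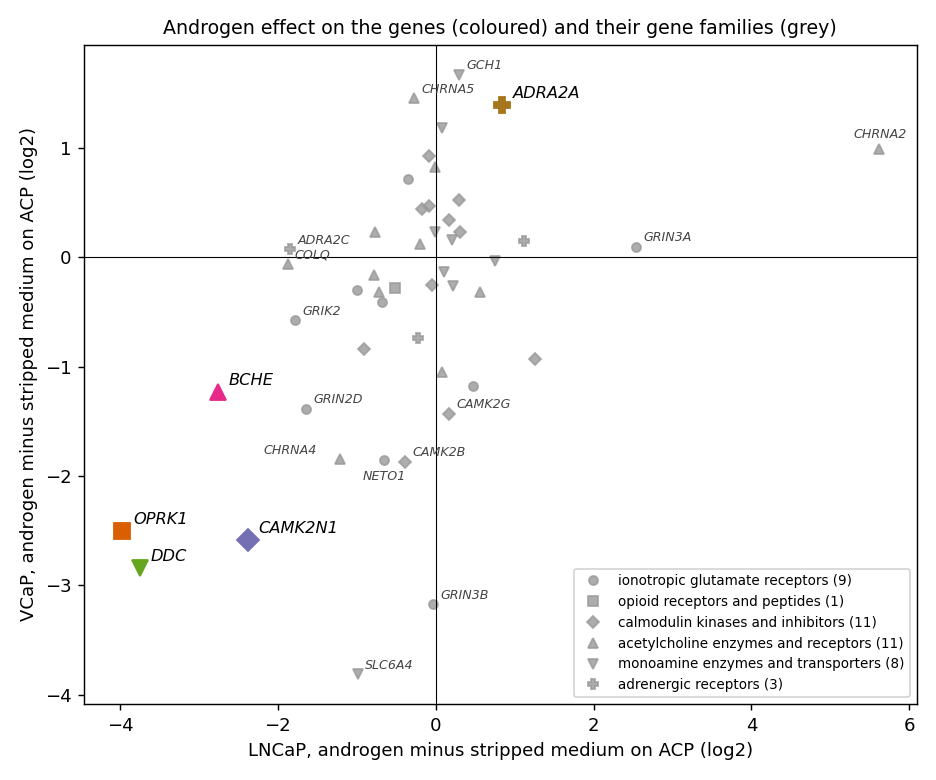
Log2 change with androgen on ACP in LNCaP (horizontal) and VCaP (vertical) for the genes of the set (coloured) and 43 other genes of their families (grey). OPRK1, CAMK2N1, BCHE and DDC are where both values are below 0, ADRA2A is where both are above 0, and CHRNA2 is the farthest to the right.

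In MDAPCa2a on plastic 38 family genes were tested in the libraries labelled stripped, and 5 rose while none fell (13.2%, against 1.58% of all genes). Without 1 library this comparison called 0 to 7 genes in the whole table, with 0 without plastic control replicate 1 and 0 without stripped replicate 2, so each of the 5 calls is lost in at least those fits. CHRNA2 rose from 5.30 and 8.36 to 30.1 and 42.0 CPM (log2 change 2.44 ± 0.28, edgeR adjusted p = 0.0118). CHRNA3 rose by 2.51 ± 0.37 (adjusted p = 0.0234), CHRNA5 by 0.98 ± 0.19 (adjusted p = 0.0416), the kinase CAMK1 by 1.07 ± 0.20 (adjusted p = 0.0367) and SPR by 0.85 ± 0.15 (adjusted p = 0.0343). Of the 7 acetylcholine genes tested, the other 4 did not pass. CHRNA2 had the opposite sign in LNCaP in stripped serum, a difference that was not tested. No family gene passed with androgen or with ACP in this line, or in the VCaP comparisons of stripped serum and of surface. Between surfaces in LNCaP in control medium, 4 of 48 family genes were higher on ACP and 3 lower (14.6%, against 12.6% of all genes). In LNCaP in stripped serum 4 were higher on ACP and 0 lower (8.33%, against 6.12%). In RWPE 34 were tested: SPR rose on ACP, and with androgen CALM2 and PTS rose and CAMK1D, CALM3 and CHRNA4 fell. Across lines on plastic in control medium, 32 of 68 family genes were higher and 7 lower in VCaP than in RWPE (57.4%, against 62.4% of all genes), 18 higher and 12 lower in MDAPCa2a than in RWPE (44.1%, against 56.7%), and 9 higher and 29 lower in MDAPCa2a than in VCaP (55.9%, against 52.4%).

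For each gene the 3 genes most alike over the 17 group means were found among 15550 genes by Pearson's r of log2 CPM; groups of a line share that line, so r describes these means only. GRIK1 was nearest to GUSBP1 (0.889), C5orf66 (0.859) and COLQ (0.825), and OPRK1 to KCNQ1 (0.947), STXBP5L (0.947) and SUSD4 (0.938). CAMK2N1 was nearest to C16orf89 (0.916), ARHGAP20 (0.91) and OPRK1 (0.91), the only case in which a gene of the set was among the nearest of another. BCHE was nearest to ACKR3 (0.978), PKHD1L1 (0.973) and RDH12 (0.971), DDC to FOLH1B (0.945), COLEC12 (0.943) and PRAC1 (0.943), and ADRA2A to ZNF665 (0.964), RRAGD (0.945) and LARGE (0.944). Within the set r ran from 0.309 for GRIK1 and CAMK2N1 to 0.91 for OPRK1 and CAMK2N1. With Spearman's rho the same 3 neighbours were named for OPRK1, 2 of 3 for ADRA2A, 1 of 3 for CAMK2N1 and BCHE, and none for GRIK1 and DDC.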

How the data were processed

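Read counts per gene were deposited by the authors as 1 table of 26336 genes by 34 libraries; the submitters' processing notes name STAR, HTSeq and hg19, with no version, and annotation and strand setting were not given in the sources used. The 6 genes and all gene lists were chosen with earlier results of these data known. Counts were tested with edgeR 4.0.16 (R 4.3.3, limma 3.58.1): TMM scaling, the filterByExpr filter (minimum count 10), a quasi-likelihood F test over all groups of a line (all 17 groups for line comparisons), Benjamini-Hochberg adjustment over all genes tested and a threshold of 0.05. SE is the log2 change divided by the square root of F. Depth was 15.4 to 44.8 M reads, and 4335 genes had no read. Named genes are the 6 genes in every group, family genes past the threshold (from each family the largest rise and fall, and others where counted), and for each of the 6 the 3 with the highest Pearson r of group mean log2 CPM (prior count 1) among genes averaging 1 CPM or more in some group. Alternatives were RLE scaling, no filter, a replicate block, DESeq2 1.42.0, a fit of all lines, a fit without plastic control libraries, a prior count of 5 for CPM, and leaving out each library. Promoters come from RefSeq (GRCh38.p14) and exon lengths from GENCODE. Steps were tested on simulated data. Some values of family genes are not reported here.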

Additional observations from a re-analysis of the deposited data

Results flagged for a closer look

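CAMK2N1 on plastic was singled out because its change in stripped serum differed between the bone metastatic lines by a direct test. The difference, MDAPCa2a minus VCaP, was a log2 value of -2.937 ± 0.68 (SE, edgeR adjusted p = 0.016). VCaP had 225 and 293 CPM in control medium and 577 CPM in its only stripped library, which is assumed to vary like the other groups, whereas MDAPCa2a had 164 and 125 CPM in control medium and 36.8 and 47.0 CPM in the libraries labelled stripped. The VCaP stripped library thus stood above both VCaP control libraries, and the MDAPCa2a libraries labelled stripped stood below both control libraries of that line. OPRK1 also passed this test without the count filter and by DESeq2, and DDC without the filter. The test was added after the values were seen, and it did not pass without VCaP plastic control replicate 1 (adjusted p = 0.0548) or MDAPCa2a plastic control replicate 1 (adjusted p = 0.0774).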

How the results depend on the processing

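No value that passed the threshold, and no alternative value that did, had the opposite direction. Of the counts of the 6 genes called, 141 of 165 stayed within 1.5 times the value reported. Without the count filter the counts were 5 (reported 3) for LNCaP stripped serum on ACP, 1 (0) for LNCaP surface in control medium, 3 (0) for VCaP stripped serum on plastic, 1 (0) for VCaP stripped serum on ACP and 2 (0) for MDAPCa2a surface. DESeq2 called 1 (2) for LNCaP surface in stripped serum, 3 (0) for VCaP stripped serum on plastic, 1 (0) for VCaP stripped serum on ACP and 1 (0) for MDAPCa2a surface. The fit of all lines called 1 (2) for LNCaP surface in stripped serum and 1 (0) for MDAPCa2a surface, and the fit without plastic control libraries called 0 for the former. Leaving out 1 library gave 0 to 1 for LNCaP surface in control medium, with 1 without ACP control replicate 2, and 0 to 1 for LNCaP surface in stripped serum. It gave 2 to 4 (4) for VCaP androgen, with 2 without ACP androgen replicate 2. MDAPCa2a stripped serum on plastic gave 0 to 0, without any 1 of its 4 libraries, and MDAPCa2a surface 0 to 1, with 1 without either ACP stripped replicate. Where this left 1 library in an arm, it is assumed to vary like the other groups. The cause of these changes was not tested.

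Leaving out 1 library turned the sign of some values that did not pass (ranges of log2 change). In LNCaP, ADRA2A in stripped serum on ACP ran from -0.32 to 1.60, GRIK1 from -0.70 to 0.44 and CAMK2N1 from -0.29 to 0.64 between surfaces in control medium, and CAMK2N1 from -0.0089 to 0.34 in stripped serum. In VCaP, DDC in stripped serum on ACP ran from -0.64 to 0.93, and CAMK2N1 from -0.60 to 0.22 and ADRA2A from -0.45 to 0.91 between surfaces in stripped serum. For RWPE surface, CAMK2N1 ran from -0.16 to 0.081 and BCHE from -2.18 to 5.46. For RWPE androgen, BCHE ran from -0.32 to 2.42. For VCaP surface in control medium, OPRK1 ran from -0.27 to 0.53. For MDAPCa2a stripped serum on plastic, GRIK1 ran from -2.70 to 2.12. For MDAPCa2a surface, GRIK1 ran from -2.23 to 6.91. For MDAPCa2a androgen, GRIK1 ran from -1.04 to 7.75, DDC from -0.41 to 0.82, ADRA2A from -0.64 to 0.61, OPRK1 from -0.65 to 0.97 and CAMK2N1 from -0.38 to 0.23. For MDAPCa2a against RWPE, BCHE ran from -0.45 to 6.30. For MDAPCa2a against VCaP, GRIK1 ran from -2.74 to 2.85. For the MDAPCa2a and VCaP difference, GRIK1 ran from -4.05 to 1.55.

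Over all genes, and so for the shares printed beside the results, the count called moved by over 1.5 times as follows (ranges are without 1 library). For RWPE surface 595 became 1226 without the filter, 2661 with the replicate block, 1401 by DESeq2 and 4 to 106. For RWPE androgen 2730 became 5741 with the block, 1402 without plastic controls and 0 to 6102, with 0 without either ACP control replicate. For LNCaP stripped serum on plastic 1385 became 2193 without the filter and 310 to 1444, and on ACP 787 became 1732 without it, 1331 by DESeq2, 504 without plastic controls and 191 to 771. For LNCaP surface in control medium 1845 became 2933 without the filter, 647 in the fit of all lines and 0 to 2385, with 0 without either plastic replicate. For LNCaP surface in stripped serum 897 became 1827 without the filter, 1775 by DESeq2, 342 in the fit of all lines, 372 without plastic controls and 66 to 1278. For LNCaP androgen 1133 became 2028, 1759, 739, 696 and 201 to 1771 in the same order. For VCaP stripped serum on plastic 139 became 25 with RLE scaling, 1231 without the filter, 3 with the block, 1169 by DESeq2, 1561 in the fit of all lines and 90 to 220. On ACP 128 became 927 without the filter, 340 with the block, 860 by DESeq2, 1057 in the fit of all lines, 326 without plastic controls and 0 to 309. VCaP surface in control medium went from 7 to 72 without the filter, 40 by DESeq2, 64 in the fit of all lines and 1 to 19, and VCaP androgen from 2727 to 4545 in that fit and 766 to 2318. VCaP surface in stripped serum went from 0 to 1 without the filter and 3 by DESeq2. MDAPCa2a stripped serum went from 215 to 855 without the filter, 616 by DESeq2, 393 in the fit of all lines and 0 to 7, its surface from 1 to 320, 213, 27 and 0 to 303, and its androgen from 0 to 9, 3, 1 and 0 to 3, in that order. The difference between MDAPCa2a and VCaP went from 541 to 852 without it, 1096 by DESeq2 and 164 to 605.

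Replicate numbers recur across groups. Same-numbered libraries' deviations correlated from -0.337 to 0.42 over 25 group pairs, 6 above 0.1, so whether they pair is undecided. With the replicate block the counts of the 6 genes called were as reported (5 for LNCaP androgen). Log2 differences from RWPE, whose libraries hold 0 or few reads of these genes, were larger under the block, at 13.92 for OPRK1 and 12.10 for BCHE in VCaP. Depth limits what 0 reads mean: in a group they allow up to 0.039 to 0.068 CPM for GRIK1 and 0.039 CPM for OPRK1.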
